A study of Rattus norvegicus with 10 samples.

Results

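The p53 target genes examined here are Cdkn1a, Mdm2, Ccng1, Phlda3, Bax, Gadd45a, Sesn1, Btg2, Zmat3 and Mgmt, and they were chosen by gene symbol. Of these 10 genes, 8 were represented by 12 probe sets that name 1 gene each, out of 14217 named genes and 31042 probe sets on the array. Bax shared its probe set with a second gene, LOC681314, and Btg2 was not analysed here. Liver RNA came from Harlan Sprague Dawley rats, 1 array per animal. The HMB group of 5 rats received HMB (2-hydroxy-4-methoxybenzophenone, or oxybenzone, an ultraviolet filter of sunscreens) in the feed at 10000 ppm for 13 weeks, and the control group of 5 rats received 0 ppm. All rats ate the NTP-2000 diet and were housed 5 per cage. Cage and treatment cannot be told apart if each group filled 1 cage. The dose label of HMB replicate 1 read 0 ppm, against its title and chemical label, and it was kept in the HMB group. The labels gave neither sex nor age, nor whether any rats were littermates.

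p53 is a transcription factor that is held at low levels by the ubiquitin ligase Mdm2 and its partner Mdm4, and that accumulates after DNA damage and other stress. It then activates genes that stop the cell cycle (Cdkn1a, Ccng1, Btg2), restrain growth signalling (Phlda3, Sesn1), favour apoptosis (Bax), take part in DNA repair and damage signalling (Gadd45a, Mgmt) and switch p53 off again (Mdm2, Ppm1d). In rat liver, a rise of Cdkn1a, Mdm2, Ccng1, Phlda3 and Mgmt together is a known response to DNA-damaging carcinogens, so these transcripts are read in feeding studies of carcinogenicity such as the one these animals came from.

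p53 binds pairs of a loosely defined decamer, each making one part of a p53 response element. Promoter sequences of RefSeq (rat build GRCr8) were available for 8 of the 10 genes, covering 250 bases before and 50 after the start used by that table. Of these 8, the promoters of 4 held a match to the decamer, which reads the same on both strands, against 7.98% of 33469 promoters of that length. The 4 are printed because they show what such a match looks like in genes that p53 is known to control, with the decamer in capitals and the gene's own strand from 5′ to 3′.
Cdkn1a, chr20:7150716-7150755 (+): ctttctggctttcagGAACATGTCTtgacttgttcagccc
Ccng1, chr10:25685084-25685123 (-): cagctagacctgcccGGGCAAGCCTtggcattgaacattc
Gadd45a, chr4:97486823-97486862 (-): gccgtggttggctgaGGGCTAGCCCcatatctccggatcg
Sesn1, chr20:46948532-46948571 (+): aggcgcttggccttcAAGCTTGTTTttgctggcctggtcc
The matches began 201 bases before the start in Cdkn1a, 232 in Ccng1, 48 in Gadd45a and 172 in Sesn1. For Sesn1, Mdm2 and Cdkn1a the start used lies inside the longer RefSeq gene, so the window is not that of the gene's outermost start. The windows of Mdm2, Phlda3, Mgmt and Btg2 did not contain these letters. A match is a description of the letters and not a measured binding site.

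The comparison asked whether the p53 targets differed in liver after 13 weeks of HMB. None of the 8 measured genes rose. Phlda3 fell, and 7 did not pass the test (limma, Benjamini-Hochberg adjusted p under 0.05 over all 14217 genes). Over all genes 1.72% passed in either direction, 0.76% higher and 0.957% lower in HMB. At an unadjusted p under 0.05, 2 of the 8 passed, Phlda3 and Ccng1, against 24.9% of all genes. That count of members was 4 without HMB 5 (19.9% of all genes), 5 when the poly-A signal entered as covariate (13.5%) and 6 without HMB 3 to 5 (11.3%), with 1 of the 5 and 1 of the 6 higher in HMB. It was 1 without control 2 (19.5%) and with HMB 1 counted as a control (25.1%). After adjustment 0 of the 8 passed in each of these 5 fits. The estimates lay below 0 for 7 of the 8, against 53.5% of all genes and 74.1% of the 7109 genes with the higher mean signals, where 7 of the 8 belong. Zmat3 was the exception, just under the middle of the range of signals. The median log2 difference was -0.32 over the 8 genes, -0.02 over all genes and -0.09 over the 7109 brighter genes. In bulk liver, fewer cells of a type and less RNA per cell cannot be told apart.

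**Figure D1:**
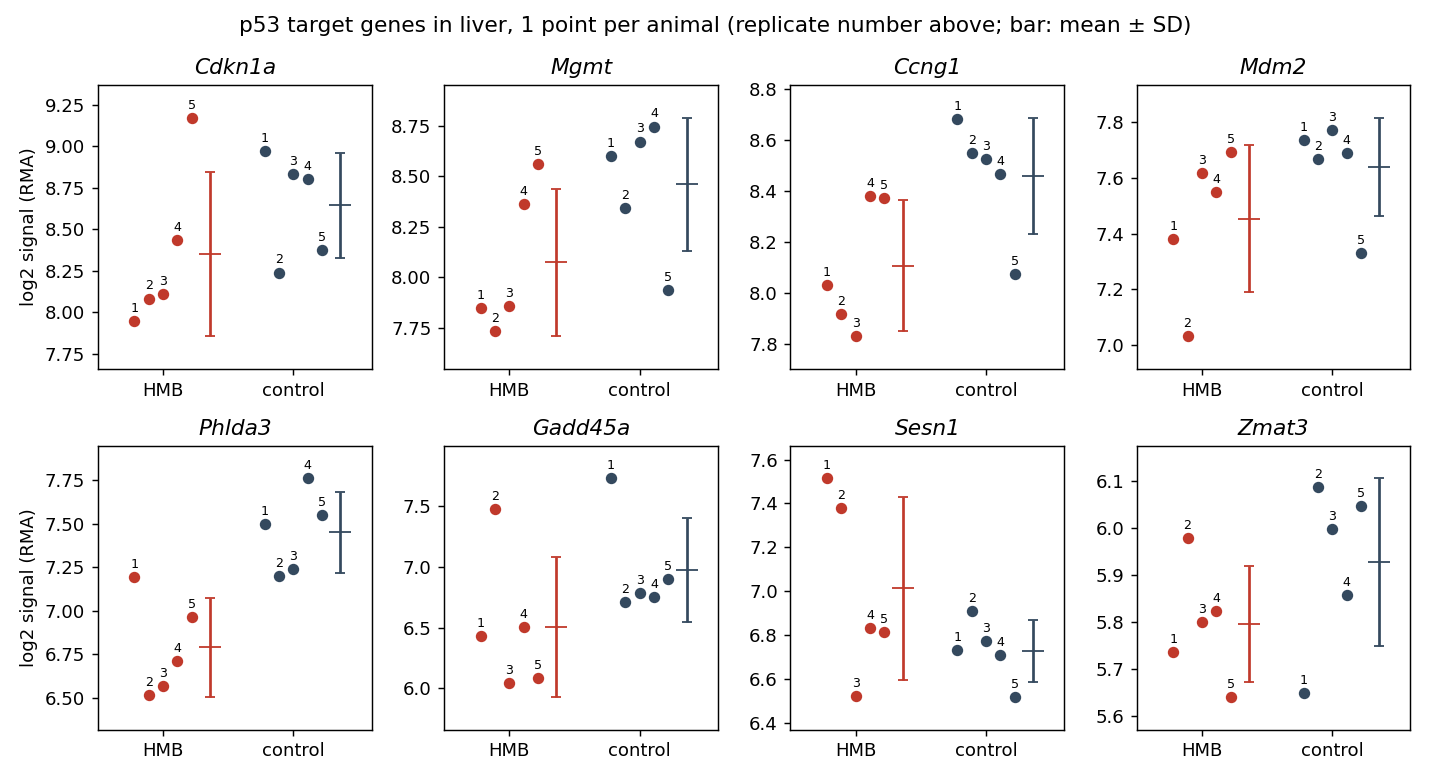
Log2 signal (y axis) of the 8 measured p53 target genes in each HMB rat (red, left) and control rat (blue, right), numbered by replicate, with the mean and SD of each group beside the points. Only in Phlda3 do the HMB and control points not overlap, and there the gap between HMB 1 and control 2 is narrow.

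Phlda3 encodes a pleckstrin homology domain protein that competes with the kinase Akt for membrane lipids. Its log2 signals were 7.19, 6.52, 6.56, 6.71 and 6.96 in HMB replicates 1 to 5, against 7.50, 7.20, 7.24, 7.76 and 7.55 in control replicates 1 to 5. All HMB animals lay below all controls, but the gap was narrow, with HMB 1 at 7.192 and control 2 at 7.200. Over all genes, 3.48% showed HMB entirely below control. The mean was 6.79 ± 0.28 in HMB and 7.45 ± 0.23 in controls (SD, n = 5 each). Phlda3 fell in HMB, by 0.66 ± 0.14 log2 units (SE, 5 rats per group, limma adjusted p = 0.0461), or to 0.633-fold (95% interval 0.509 to 0.787). The call lay close to the threshold. It was lost without control 2, control 3, control 4, control 5, HMB 2, HMB 3, HMB 4 or HMB 5, with adjusted p from 0.0723 to 0.104, and held without control 1 (adjusted p = 0.0398) or HMB 1 (adjusted p = 0.0324). Cyclic loess normalization left -0.54 (adjusted p = 0.109).

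Cdkn1a encodes p21, the inhibitor of cyclin-dependent kinases through which p53 stops the cell cycle. Its brighter probe set read 7.95, 8.08, 8.11, 8.44 and 9.17 in HMB replicates 1 to 5, against 8.97, 8.24, 8.83, 8.81 and 8.38 in control replicates 1 to 5. The groups overlapped: HMB 1 to 3 lay below all controls, and HMB 5 lay above all controls. The log2 difference was -0.29 ± 0.22 (SE, 5 rats per group, limma adjusted p = 0.415), and without HMB 5 it was -0.50 (adjusted p = 0.149). It was -0.07 without HMB 1 and 2 (adjusted p = 0.869) and -0.08 with HMB 1 counted as a control (adjusted p = 0.865). Over the 20 other settings it ran from -0.66 to -0.07 and passed in 0. The dimmer Cdkn1a probe set had the same order in part, with HMB 5 highest at 6.95 and HMB 2 and 3 lowest at 5.36 and 5.22, against 5.83 to 6.32 in controls. Its log2 difference was -0.25 ± 0.26 (limma adjusted p = 0.569 over probe sets). The SD among HMB animals was 0.49 for the brighter and 0.68 for the dimmer probe set, against 0.32 and 0.21 among controls. For the brighter probe set and all animals, the interval of the Cdkn1a difference ran from 0.584-fold to 1.14-fold. A rise above 1.14-fold lay outside the interval of that fit, which does not speak for the other settings.

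Ccng1 encodes cyclin G1, a p53 target that brings the phosphatase PP2A to Mdm2. It read 8.03, 7.92, 7.83, 8.38 and 8.37 in HMB replicates 1 to 5, against 8.68, 8.55, 8.53, 8.47 and 8.08 in control replicates 1 to 5. The HMB values all lay below those of control 1 to 4, and control 5 fell among them. The log2 difference was -0.35 ± 0.14 (SE, 5 rats per group, limma adjusted p = 0.146), with an unadjusted 95% interval of 0.637-fold to 0.964-fold that did not reach 1.

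Mgmt encodes the methyltransferase that removes alkyl groups from guanine in DNA. It read 7.85, 7.74, 7.86, 8.36 and 8.56 in HMB replicates 1 to 5, against 8.60, 8.34, 8.67, 8.75 and 7.94 in control replicates 1 to 5. As in Cdkn1a, HMB 1 to 3 were below all controls. HMB 4 and 5 lay within the range of the controls, while in Cdkn1a HMB 5 lay above all controls. The log2 difference was -0.39 ± 0.19 (SE, 5 rats per group, limma adjusted p = 0.222), with a 95% interval of 0.576-fold to 1.02-fold.

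Mdm2, the ligase that marks p53 for degradation and is itself a p53 target, had 3 probe sets. The brightest read 7.38, 7.03, 7.62, 7.55 and 7.69 in HMB replicates 1 to 5, against 7.74, 7.67, 7.77, 7.69 and 7.33 in control replicates 1 to 5. The groups overlapped, with HMB 2 lowest of all animals. Its log2 difference was -0.18 ± 0.13 (SE, 5 rats per group, limma adjusted p = 0.378), with a 95% interval of 0.726-fold to 1.07-fold, and it was -0.08 without HMB 2 (adjusted p = 0.662). The second probe set had a log2 difference of -0.22 ± 0.11 (adjusted p = 0.239 over probe sets), and the dimmest one of 0.09 ± 0.11 (adjusted p = 0.648), so the signs differed between probe sets of this gene.

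The probe set assigned to Bax, the pore-forming apoptosis protein, and LOC681314 together cannot be given to either gene. It read 7.76, 7.56, 7.67, 7.99 and 7.95 in HMB replicates 1 to 5, against 7.99, 7.96, 8.04, 7.92 and 7.85 in control replicates 1 to 5. HMB 1 to 3 again lay below all controls and HMB 4 and 5 among them (log2 difference -0.17 ± 0.09, SE, 5 rats per group, limma adjusted p = 0.280 over probe sets).

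Gadd45a, a stress protein that binds PCNA and p21, read 6.43, 7.47, 6.04, 6.51 and 6.09 in HMB replicates 1 to 5, against 7.73, 6.71, 6.79, 6.75 and 6.90 in control replicates 1 to 5. In HMB 1, 3, 4 and 5 the signal was below all controls, and in HMB 2 it was above all but control 1. The log2 difference was -0.47 ± 0.27 (SE, 5 rats per group, limma adjusted p = 0.291). Without HMB 2 it was -0.71 (adjusted p = 0.0938). Egr1, an immediate early gene, was above all controls (5.96 to 6.98) in HMB 2 at 8.90, and also in HMB 4 at 7.91 and HMB 5 at 8.57, whose Gadd45a signals lay below all controls.

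Zmat3, an RNA-binding zinc finger protein, read 5.74, 5.98, 5.80, 5.82 and 5.64 in HMB replicates 1 to 5, against 5.65, 6.09, 5.997, 5.86 and 6.05 in control replicates 1 to 5. The groups overlapped (log2 difference -0.13 ± 0.10, SE, 5 rats per group, limma adjusted p = 0.407), and the 95% interval ran from 0.790-fold to 1.06-fold.

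Sesn1 encodes sestrin 1, which restrains mTORC1 signalling. It was the gene among the 8 with an estimate above 0. It read 7.51, 7.38, 6.52, 6.83 and 6.81 in HMB replicates 1 to 5, against 6.73, 6.91, 6.77, 6.71 and 6.52 in control replicates 1 to 5. HMB 1 and 2 lay above all controls, and HMB 3 to 5 lay within their range. The log2 difference was 0.28 ± 0.17 (SE, 5 rats per group, limma adjusted p = 0.311), with a 95% interval of 0.942-fold to 1.57-fold. A dim second Sesn1 probe set had a log2 difference of 0.26 ± 0.09 (adjusted p = 0.118 over probe sets), with HMB 1, 2 and 5 above all controls. HMB 1 and 2 were also the animals with the lowest 3′ minus 5′ log2 signal of GAPDH, a measure of RNA integrity, at 1.31 and 1.378, against 1.383 to 1.77 in controls. Without HMB 1 and 2 the log2 difference of Sesn1 was -0.01 (adjusted p = 0.981), without HMB 1 alone 0.16 (adjusted p = 0.517), and without HMB 3 to 5 it was 0.72 (adjusted p = 0.215).

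**Figure D2:**
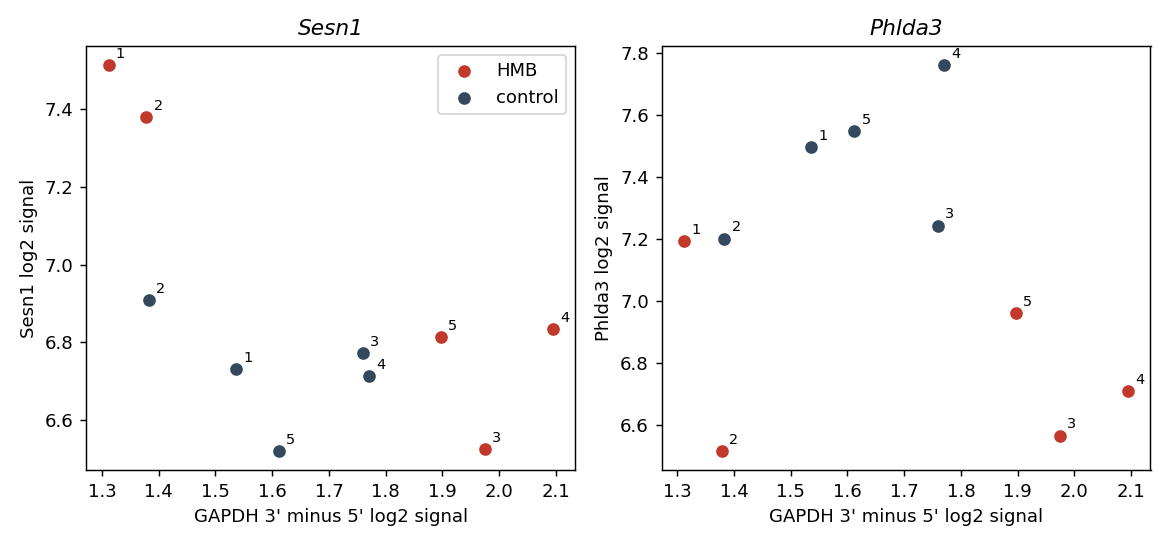
Log2 signal of Sesn1 (left) and Phlda3 (right) on the y axis against the GAPDH 3′ minus 5′ log2 signal on the x axis, 1 point per rat, HMB in red and control in blue, numbered by replicate. The 2 high Sesn1 values belong to HMB 1 and 2, at the left end of the x axis, while low Phlda3 values occur at both ends.

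Every probe set was then set side by side. Across the 12 probe sets of the 8 genes, 9 had a log2 difference below 0, and both of Sesn1 and the dimmest of Mdm2 had one above 0. The Phlda3 probe set alone passed the test over probe sets (adjusted p = 0.0442), where 1.7% of 31042 passed.

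**Figure D3:**
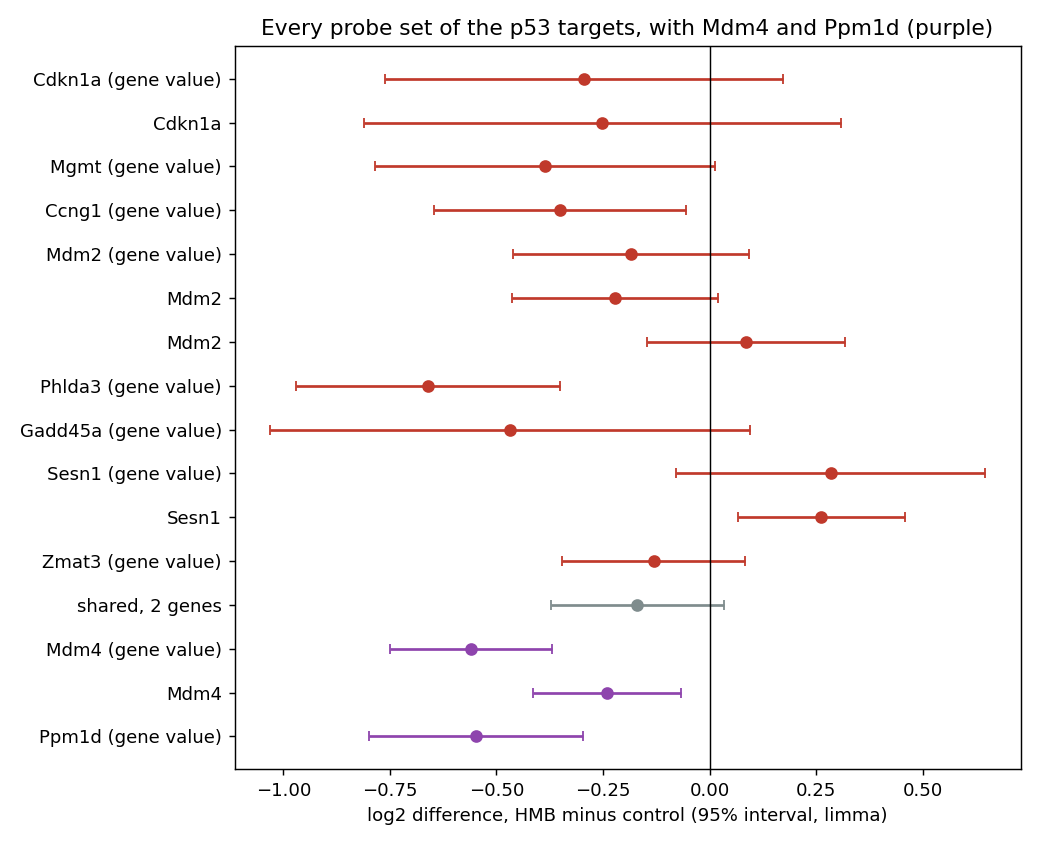
Log2 difference, HMB minus control, with 95% interval (x axis) for each probe set of the 8 genes (red), the probe set shared by Bax and LOC681314 (grey) and those of Mdm4 and Ppm1d (purple). Gene value marks the probe set that stands for its gene, and the intervals that lie wholly below 0 are those of Ccng1, Phlda3, Mdm4 and Ppm1d, while the dimmer Sesn1 probe set lies wholly above 0.

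The 8 genes did not vary as 1 block among animals of the same group. Deviations from the group mean were compared for all 28 pairs over 10 animals. The highest correlations joined Cdkn1a, Ccng1, Mgmt and Mdm2. For Ccng1 and Mgmt, Pearson's r was 0.869 (exact permutation within groups, p = 0.0140, adjusted p = 0.130 over 28 pairs) and Spearman's rho 0.842 (exact permutation p = 0.0199, adjusted p = 0.206). For Cdkn1a and Mgmt, r was 0.848 (exact permutation p = 0.00465, adjusted p = 0.130) and rho 0.721 (exact permutation p = 0.0221, adjusted p = 0.206). Without the 2 animals farthest from the median on the first gene of each pair, r was 0.792 and 0.826. Left out in the same way, the 2 farthest animals took r to 0.572, against 0.772, for Mdm2 and Mgmt, and to 0.488, against 0.673, for Cdkn1a and Ccng1. They took it to 0.252, against 0.646, for Mdm2 and Ccng1, and to 0.446, against 0.594, for Cdkn1a and Mdm2. Zmat3 ran the other way, with r of -0.661 against Cdkn1a (exact permutation p = 0.0354, adjusted p = 0.233) and rho of -0.661 (exact permutation p = 0.0585, adjusted p = 0.280). That r was -0.339 without the 2 farthest animals, so it rested on them. Of the 28 pairs, 6 had r above 0.5, 14 were above 0 and 0 passed after adjustment. All genes of an animal share 1 array and 1 RNA sample.

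**Figure D4:**
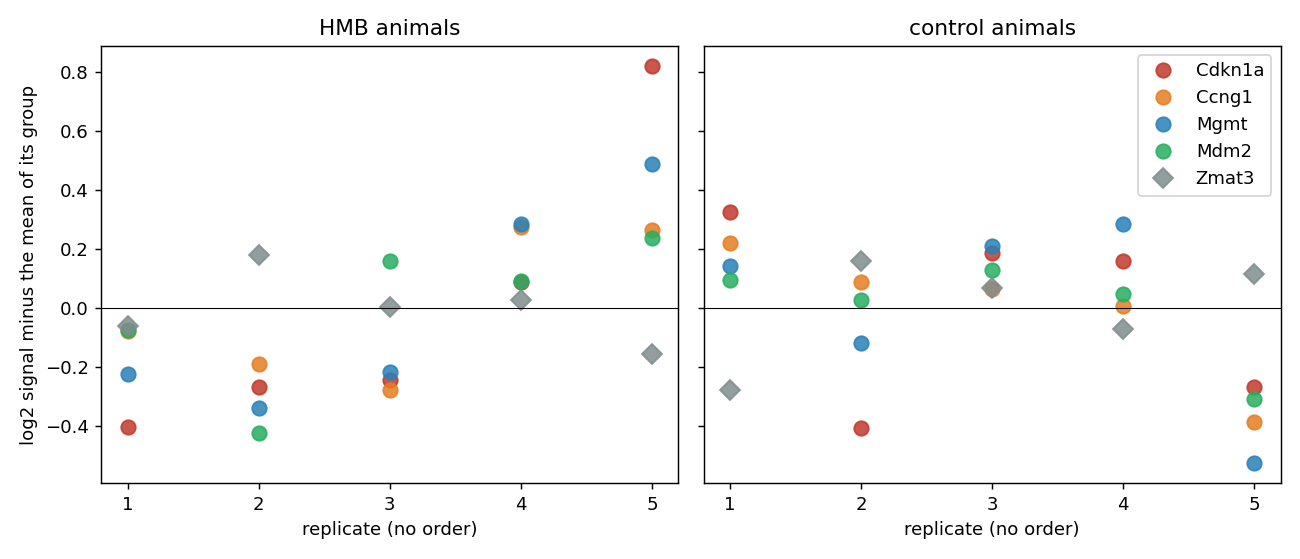
Log2 signal minus the mean of its own group (y axis) for Cdkn1a, Ccng1, Mgmt and Mdm2 (circles) and Zmat3 (grey diamonds) in each HMB rat (left) and control rat (right), with replicate number on the x axis. Circles of the first 4 genes lie together below 0 in HMB 1 and 2 and in control 5, and above 0 in HMB 4 and 5.

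Searching the 7108 other genes with the higher mean signals for deviations most like those of Cdkn1a returned Crat, Dyrk2 and Mast3. Crat is carnitine acetyltransferase, and Dyrk2 and Mast3 are protein kinases. Pearson's r with Cdkn1a was 0.91, 0.908 and 0.899 in that order, and Spearman's rho was 0.915, 0.782 and 0.867. Without the 2 animals farthest from the median for Cdkn1a, r was 0.873, 0.747 and 0.797. These are the highest of 7108 and describe likeness over 10 animals. Between groups, Crat had a log2 difference of 0.13 (limma adjusted p = 0.390), Dyrk2 of -0.06 (adjusted p = 0.802) and Mast3 of 0.16 (adjusted p = 0.296).

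Among p53's partners and modifiers, Mdm4 fell and 16 of 17 measured genes did not pass, where 1.72% of all genes passed. At an unadjusted p under 0.05, 0 of the 17 were higher and 3 lower in HMB, against 24.9% of all genes in either direction. Mdm4 is the relative of Mdm2 that blocks the activation domain of p53. It read 5.49, 5.61, 5.74, 5.56 and 5.80 in HMB replicates 1 to 5, against 6.22, 6.23, 6.34, 6.17 and 6.04 in control replicates 1 to 5. All HMB animals were below all controls, at a log2 difference of -0.56 ± 0.08 (SE, 5 rats per group, limma adjusted p = 0.0294), or 0.678-fold. Its p ranked 9 among 14217 genes. A dimmer Mdm4 probe set had a log2 difference of -0.24 ± 0.08 (adjusted p = 0.110 over probe sets). The next smallest p-values in this list belonged to Kat5, an acetyltransferase of the damage response, at -0.22 (adjusted p = 0.140), the ubiquitin ligase Rchy1 at -0.27 (adjusted p = 0.155), the ubiquitin ligase Cop1 at -0.14 (adjusted p = 0.259) and the damage kinase Atr at -0.18 (adjusted p = 0.275). Over the 17 genes the median of the log2 differences was -0.06.

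Of 30 other measured p53 targets, Ppm1d fell, 0 rose and 29 did not pass, where 1.72% of all genes passed. At an unadjusted p under 0.05, 2 of the 30 were higher and 6 lower in HMB, against 24.9% of all genes in either direction. The log2 differences of the list ran from -0.98 to 0.48. Ppm1d encodes the phosphatase Wip1, which switches off p53 and the damage kinases. It read 5.32, 5.17, 4.89, 5.08 and 5.07 in HMB replicates 1 to 5, against 5.48, 5.95, 5.51, 5.85 and 5.48 in control replicates 1 to 5. Again the groups did not overlap, and Ppm1d fell to 0.684-fold, a log2 difference of -0.55 ± 0.11 (SE, 5 rats per group, limma adjusted p = 0.0414). Aen, an apoptosis nuclease, was also lower in every HMB animal than in any control, at -0.39 ± 0.12 (adjusted p = 0.0927). Rprm, a cell cycle inhibitor, was at -0.98 ± 0.36 (adjusted p = 0.129), Apaf1, the scaffold of the apoptosome, at -0.29 (adjusted p = 0.0918), and Ddb2, a recognition factor of nucleotide excision repair, at -0.24 (adjusted p = 0.109). The list had a median of -0.05, with 21 genes below 0 and 9 above. Of all genes 53.5% lay below 0, and 74.1% of the 7109 brighter genes.

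The Mdm4 and Ppm1d calls, like that of Phlda3, did not hold in all settings. The adjusted p of Mdm4, 0.0294, was also the smallest reached by any of the 14217 genes, but Mdm4 was not alone at it. Eci1, which ranked 4 by p where Mdm4 ranked 9, had the same adjusted p. Over 20 other settings the log2 difference of Mdm4 ran from -0.71 to -0.40 and passed in 9 (adjusted p from 0.0178 to 0.215), and that of Ppm1d ran from -0.64 to -0.41 and passed in 7 (adjusted p from 0.0247 to 0.392). Cyclic loess kept the Mdm4 call (adjusted p = 0.0431) and not that of Ppm1d (adjusted p = 0.0700). Quantile normalization lost both (limma adjusted p = 0.0535 for Mdm4 and 0.0664 for Ppm1d). Both were also lost with HMB 1 counted as a control (limma adjusted p = 0.124 for Mdm4 and 0.0587 for Ppm1d). The Mdm4 call was lost without control 2, 3, 4 or 5 or HMB 2, 4 or 5, with adjusted p up to 0.0744, and the Ppm1d call without any of these or HMB 3, with adjusted p up to 0.0961. Few genes passed at all in the left-out fits that lost Mdm4, in place of 244. The number was 0 without control 2, 3 or 5 or HMB 2, 1 without HMB 4 or 5, and 15 without control 4.

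Over all genes 1.72% passed, and of the 20 paralogues of the 10 genes, Mdm4 was the 1 that passed. Below it, Btg4, a dim transcript, was at 0.23 (adjusted p = 0.105), Btg3, an antiproliferative relative of Btg2, at -0.39 (adjusted p = 0.114), Zmat5 at -0.24 (adjusted p = 0.130), and Sesn3, a sestrin like Sesn1, at -0.47 (adjusted p = 0.141). The median of the 20 paralogues was 0.03. At an unadjusted p under 0.05, 3 of them were higher and 4 lower in HMB, against 24.9% of all genes in either direction.

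The list of G1 and S phase partners of p21 held 15 measured genes, namely cyclins, their kinases, retinoblastoma and E2F proteins and Pcna. Of the 15, 1 passed, where 1.72% of all genes passed. At an unadjusted p under 0.05, 1 was higher and 4 were lower in HMB, against 24.9% of all genes in either direction. Ccnd1, cyclin D1 of G1 phase, fell to 7.78 ± 0.27 in HMB, against 8.90 ± 0.46 in controls (SD, n = 5 each), a log2 difference of -1.12 (limma adjusted p = 0.0296). Over the 20 other settings the Ccnd1 call held in 9 (log2 difference from -1.43 to -1.01, adjusted p from 0.0136 to 0.281), and it was lost without control 2, 3, 4 or 5 or HMB 2, 4 or 5. Cyclic loess kept it (limma adjusted p = 0.0481), while quantile normalization (adjusted p = 0.0502) and HMB 1 as a control (adjusted p = 0.0663) lost it. The other 14 did not pass, with Rb1, the retinoblastoma protein that restrains S phase entry, at -0.42 (adjusted p = 0.0643) and all its HMB values below all controls. The G1 kinase Cdk6 was at 0.44 from a dim signal (adjusted p = 0.0719), Rbl1 at -0.20 (adjusted p = 0.140) and Pcna, the sliding clamp of DNA synthesis, at -0.21 (adjusted p = 0.174).

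Apoptosis and repair genes showed 0 calls. Of 20 Bcl2 family and caspase genes, 4 had an unadjusted p under 0.05, against 24.9% of all genes. Among them was Bad, a BH3-only promoter of apoptosis, at -0.32 (limma adjusted p = 0.0592). Its HMB values all lay below all controls, as they did in 3.48% of all genes. Bcl2 was at 0.25 (adjusted p = 0.175) and Bid at -0.25 (adjusted p = 0.178). Of 36 DNA repair genes, 8 had an unadjusted p under 0.05, 1 higher and 7 lower, a share near the 24.9% of all genes. The smallest p-values there were those of the mismatch repair gene Msh6 at -0.35 (adjusted p = 0.0847), of Ddb2, of the nuclease Ercc5 at -0.30 (adjusted p = 0.110) and of Rad50, a subunit of the double-strand break sensor, at -0.22 (adjusted p = 0.117).

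Hepatocyte markers were bright on every array, with a mean log2 signal of 12.6 to 12.8 in HMB and 12.7 to 12.9 in controls over 7 genes. Of 7 hepatocyte, 6 macrophage, 5 endothelial, 8 stellate, 5 cholangiocyte, 7 lymphocyte, 3 neutrophil and 4 erythroid markers, 0 passed. An unadjusted p under 0.05 was found for 7 of them, against 24.9% of all genes. These included 3 lymphocyte and 2 erythroid markers, all higher in HMB. The 3 lymphocyte markers were dim. Their mean log2 signals in HMB and in controls were 3.63 and 3.39 for Cd3e, 2.65 and 2.41 for Cd3d, and 3.66 and 3.30 for Nkg7. The dim erythroid marker Slc4a1 was above all controls in every HMB animal, at 0.39 (limma adjusted p = 0.0728). The same separation held for 375 of 14217 genes. The median log2 difference was 0.22 for lymphocyte and 0.35 for erythroid markers, and between -0.06 and 0.09 for the rest. Lymphocyte markers averaged 3.78 to 4.14 in HMB and 3.55 to 4.02 in controls, and erythroid markers 5.49 to 5.97 in HMB and 5.16 to 5.67 in controls. Of 12 immediate early genes 0 passed, with Egr1 at 1.29 (limma adjusted p = 0.121), Jun at -0.55 (adjusted p = 0.0922), Dusp1 at -0.91 (adjusted p = 0.138) and Fosb at 0.35 (adjusted p = 0.181). The signal of poly-A control transcripts, less that of hybridisation controls, was -1.73 ± 0.22 in HMB and -2.04 ± 0.11 in controls (SD, n = 5 each, exact two-sided permutation p = 0.0238, adjusted p = 0.0476 over 4 array measures). The GAPDH 3′ minus 5′ signal was 1.73 ± 0.36 in HMB and 1.61 ± 0.16 in controls (exact two-sided permutation p = 0.516, adjusted p = 0.688). The means hide a split, with HMB 3, 4 and 5 at 1.97, 2.09 and 1.90, above all controls (1.383 to 1.77). HMB 1 and 2 lay below all controls. The beta-actin 3′ minus 5′ signal was 3.50 ± 0.34 in HMB and 3.51 ± 0.16 in controls (exact two-sided permutation p = 0.897, adjusted p = 0.897). There HMB 1 and 2, at 3.158 and 3.182, also lay below all controls (3.255 to 3.641). HMB 4, at 3.963, lay above them, and HMB 3 and 5, at 3.616 and 3.576, lay within their range. The log2 signals within an array spread less in HMB, with an SD of 2.40 ± 0.0261 in HMB and 2.47 ± 0.0236 in controls. The highest HMB array, at 2.431, lay just under the lowest control, at 2.434, and the exact permutation test gave a two-sided p of 0.00794, the minimum for 5 against 5 (adjusted p = 0.0317). With the poly-A measure as a covariate, 0 genes passed in place of 244, and Phlda3 was at -0.62 (limma adjusted p = 0.265). After quantile normalization, which gives all arrays the same spread, Phlda3 was at -0.53 (limma adjusted p = 0.102).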

How the data were processed

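One array per rat was measured, 5 HMB and 5 control. The authors deposited log2 values made with RMA, per the submitters' processing notes. RMA adjusts background, normalizes the arrays together and summarises the probes of a set into 1 value. These values were used unchanged. No detection calls were used. Names came from the annotation of the platform: 20826 of 31042 had 1 gene symbol, 436 several and 9780 none, and the 57 control probe sets stayed out of the tests. Symbols were updated through gene IDs to the RefSeq table of GRCr8 (20758 matched). Each gene took its brightest probe set, by the mean of the 10 arrays.

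limma 3.58.1 (lmFit, eBayes) in R 4.3.3 compared HMB with control, with Benjamini-Hochberg adjustment over all genes or all probe sets and a threshold of 0.05. Residual degrees of freedom were 8, and the number of arrays limits the precision. The step was tested on simulated data. Intervals are unadjusted, at 95%, and RMA can compress folds. Correlations within groups were tested over 14400 exact permutations. Figures used matplotlib 3.10.9 in Python 3.11.15. The genes, lists and tests were chosen with earlier results of these data known. Named genes were all members, genes called in each list, the next 4 by p, and the 3 most like Cdkn1a. The alternatives covered normalization, filtering, prior, probe set choice, labels, covariates and left-out animals. The labels say nothing of separate litters, and p-values treat the animals as independent.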

Additional observations from a re-analysis of the deposited data

Results flagged for a closer look

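Among 84 sets of 5 animals (the member probe sets and the other pathway genes named, each in HMB and in control), 3 held an animal far from the other 4, where chance gives about 1 in 20. Gadd45a was 7.73 in control 1, while the other 4 controls lay between 6.71 and 6.90. Without control 1 the log2 difference of Gadd45a was -0.28 (limma adjusted p = 0.460), and without HMB 2 it was -0.71 (adjusted p = 0.0938). Mdm2 was 7.33 in control 5, below 7.67 to 7.77 in the other controls, and without control 5 its log2 difference was -0.26 (adjusted p = 0.246), against -0.08 without HMB 2 (adjusted p = 0.662). Aen was 6.55 in HMB 2, below 6.92 to 7.06 in the other HMB animals.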

How the results depend on the processing

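No paired analysis was possible because the replicate numbers follow the order of deposition and pair no animals. Over 20 other settings, the median log2 difference of the 8 p53 targets stayed below 0, from -0.46 to -0.18. The number of p53 targets called was 1, Phlda3, and it was 0 with cyclic loess, quantile normalization, HMB 1 as a control, the poly-A signal as a covariate or HMB 3 to 5 left out, and 0 to 1 with each animal left out in turn. In those 5 settings Phlda3 was at -0.54 (limma adjusted p = 0.109), -0.53 (adjusted p = 0.102), -0.72 (adjusted p = 0.0508), -0.62 (adjusted p = 0.265) and -0.60 (adjusted p = 0.362), and with each animal left out between -0.76 and -0.58. Gadd45a changed sign with the poly-A covariate (0.22, adjusted p = 0.719) and Sesn1 without HMB 1 and 2 (-0.0052, adjusted p = 0.981). The other 6 genes kept their sign. Over all genes 244 passed, with 82 after cyclic loess, 62 after quantile normalization, 30 with HMB 1 as a control, 0 with the poly-A covariate, 0 without HMB 3 to 5 and 704 without HMB 1 and 2. With each animal left out the number ran from 0 (without control 2, 3 or 5 or HMB 2, where 2772 to 3434 genes had an unadjusted p under 0.05) to 1014 (without control 1). The poly-A fit and that without HMB 3 to 5 had 1914 and 1612 genes at an unadjusted p under 0.05. The cause of these changes was not tested. The fits that leave animals out also hold fewer animals, and the number of genes passing went both up and down in them. Settings for Mdm4, Ppm1d and Ccnd1 were added after their values were seen.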
